A study of Homo sapiens with 6 samples.

Results

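The genes described here are 35 aminoacyl-tRNA synthetase genes, 19 of them coding for cytosolic enzymes and 16 for mitochondrial ones, picked by symbol from the 62700 gene rows of the count table. The list does not cover every human synthetase. All 35 had enough reads to be tested. The libraries were made from polyadenylated RNA of KYSE510, an established line of esophageal squamous cell carcinoma, with 3 biological replicates expressing a control hairpin (shControl, genotype given as WT) and 3 expressing a hairpin against RNH1 (shRNH1, genotype given as RNH1 knockdown). The stated purpose of the knockdown was to obtain a model with induced R-loops, which are RNA:DNA hybrids with a displaced DNA strand. The labels name 1 knockdown hairpin and do not say whether a clone or a pool of cells was used, so the 2 groups differ in everything that came with that hairpin.

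Each synthetase joins 1 amino acid to its matching tRNAs, which is the step at which the genetic code is read into protein. The enzymes fall into 2 structural classes, I and II, and the cytosol and the mitochondrion are mostly served by separate nuclear genes, named with the suffix 1 and 2. Exceptions are KARS1 and GARS1, each of which supplies both compartments, and EPRS1, whose single protein charges both glutamate and proline tRNAs. Several cytosolic enzymes sit together in the multisynthetase complex, held by scaffold proteins. Uncharged tRNA activates the kinase GCN2, which through ATF4 raises transcription of many cytosolic synthetase genes, and WARS1 is a classic interferon gamma target.

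Library totals ran from 40225486 to 41103220 counts in shControl and from 31394687 to 33421217 in shRNH1. The symbol RNH1 is today that of a ribonuclease inhibitor and was earlier used for RNASEH1, the enzyme that cuts RNA in RNA:DNA hybrids. RNASEH1 had 34.9, 32.5 and 27.5 CPM (counts scaled to the library total with trimmed-mean factors) in shControl and 7.40, 7.03 and 7.03 in shRNH1, 0.226 times the control level (exact two-sided permutation p = 0.1, the smallest that 3 libraries against 3 allow). RNH1 itself was at 546 ± 97.4 and 478 ± 45.5 CPM (SD, n = 3, as for every ± of CPM below; exact permutation p = 0.4). The summed CPM of 11 squamous markers was 1498 to 1832 in shControl and 1553 to 1625 in shRNH1. Of the 11, 4 were called higher and 4 lower by edgeR: SOX2 (log2 2.68), PKP1 (0 to 2 counts in shControl, 10 to 21 in shRNH1), TRIM29 (0.55) and CDH3 (0.26) rose, and KRT6A (-2.13), KRT14 (-1.40), KRT5 (-1.33) and SFN (-0.37) fell. Summed leukocyte markers were at 5.81 to 7.27 and 7.18 to 9.52 CPM and endothelial markers at 21.1 to 22.7 and 20.6 to 23.4 CPM. Of the endothelial markers, ESAM (log2 1.26) and PECAM1 (0.51) were called higher. CDH5, the largest part of that sum, went from 15.5 ± 1.07 to 12.9 ± 0.918 CPM (-0.26) and was not called. VWF (-0.42) was not called either, and KDR was at 0 in all 6 libraries. Summed fibroblast markers went from 62.6 to 71.9 CPM to 111 to 133 CPM, nearly all of it COL1A1 (log2 0.98), while PDGFRB fell (-0.91) and COL1A2 and DCN were at 0 in all 6 libraries. The part of these marker shifts in the results below was not tested.

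In shRNH1, 4 synthetase genes were higher and 5 were lower than in shControl, and 26 did not pass the test. The cytosolic genes GARS1 and WARS1 and the mitochondrial genes EARS2 and IARS2 rose, and the cytosolic genes HARS1, KARS1 and NARS1 and the mitochondrial genes MARS2 and WARS2 fell. EARS2, for mitochondrial glutamate, rose most, to 1.64 times its control level, and WARS2, for mitochondrial tryptophan, fell most, to 0.700 times. Genes were called with edgeR's quasi-likelihood test at a Benjamini-Hochberg adjusted p below 0.05 over all 19682 genes tested. By that rule 27.6% of all genes were called, 15.3% higher and 12.3% lower, against 25.7% of the 35 synthetases, so the share called among the synthetases was near that of all genes. The share called depends on expression. In 5 equal bins of all genes by expression it was 8.94% in the lowest and 40.0% in the highest, which held 16 cytosolic and 5 mitochondrial synthetases. Compared with that highest bin, the share among the synthetases was lower. The CPM of the groups did not overlap for 12 of the 35 (34.3%), against 40.0% of all genes. In bulk RNA, fewer cells making a transcript and less of it per cell cannot be told apart.

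**Figure D1:**
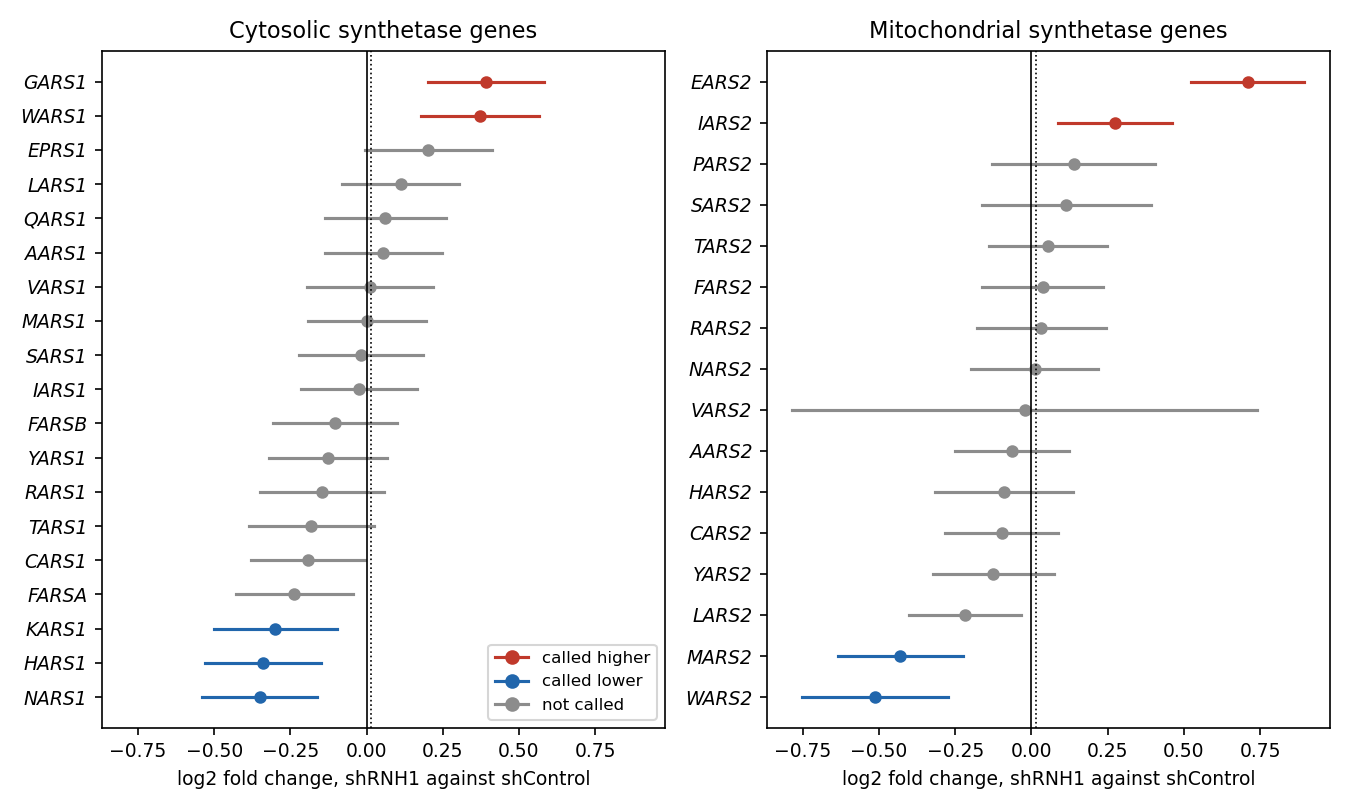
Log2 fold change of each synthetase gene in shRNH1 against shControl (3 libraries each), cytosolic genes on the left and mitochondrial genes on the right; bars are 95% intervals from the quasi-likelihood fit, red and blue mark genes called higher and lower, and the dotted line is the median of all 19682 genes, 0.02. Most points lie close to 0, with EARS2 at 0.71 and WARS2 at -0.51 at the ends, and VARS2 has the widest interval.

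Among the 19 cytosolic genes, 2 were called higher and 3 lower, with a median log2 fold change of -0.02 and a range from -0.35 to 0.39. Among the 16 mitochondrial genes, 2 were called higher and 2 lower, with a median of -0.01 and a range from -0.51 to 0.71. The median of all genes tested was 0.02. Scaling by library size alone moved that median to 0.13 and turned the split of all calls from 3006 higher and 2418 lower to 4065 higher and 1433 lower. The cytosolic calls then stood at 3 higher and 0 lower (3 lower at an unadjusted p below 0.05) and the mitochondrial ones at 2 and 2. An offset for GC content and length gave 2889 higher and 3549 lower over all genes, with 2 and 6 among the cytosolic genes and 2 and 3 among the mitochondrial genes. The calls were spread over both structural classes, 3 higher and 2 lower of 18 class I genes and 1 higher and 3 lower of 16 class II genes, with EPRS1, which holds both, left out.

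Promoter sequences bear on these genes because synthetase promoters are known to carry the composite element read by ATF4 and C/EBP proteins, and because WARS1 has known interferon elements. RefSeq promoter windows (GRCh38.p14, 250 bases before to 50 after each start) were matched for 30 of the 35 genes, in 39 windows. LARS1, VARS1, YARS1, AARS2 and VARS2 were not matched. Searching both strands for TGATGNAA, the core of the ATF4 element, found it in 8 genes, 7 cytosolic and 1 mitochondrial, that is in 20.5% of the 39 windows against 3.62% of all 35116 windows. In the stretches below the matching letters are in capitals, each stretch is 30 bases, and the genes shown include the 1 that rose, the 1 that fell, and others that did not pass the test.
GARS1: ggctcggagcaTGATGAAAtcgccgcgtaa
NARS1: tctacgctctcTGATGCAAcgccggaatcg
MARS1: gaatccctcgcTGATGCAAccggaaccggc
TARS1: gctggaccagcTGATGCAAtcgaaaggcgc
AARS1: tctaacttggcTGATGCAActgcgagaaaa
YARS2: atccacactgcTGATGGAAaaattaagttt
The stretches lie at chr7:30594834-30594863 (minus strand) for GARS1, chr18:57621804-57621833 (minus) for NARS1, chr12:57488053-57488082 (minus) for MARS1, chr5:33440956-33440985 (minus) for TARS1, chr16:70289675-70289704 (plus) for AARS1 and chr12:32756076-32756105 (minus) for YARS2. Read along the gene, with the start as position 1, the motif began at -33 in GARS1, -4 in MARS1, 3 in TARS1 and 15 in NARS1, and farther out in AARS1 (-187) and YARS2 (-197). IARS1 and CARS1 also held the motif near the start. Of the 8 genes, GARS1 was called higher, NARS1 lower and the other 6 in neither direction. A match is a run of letters and shows no binding.

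Other short motifs were searched in the same windows. CACGTG, the E-box read by MYC and related factors, was in 4 genes and 12.8% of member windows against 7.26% of all windows. TTCNNNGAA, the core of the site read by STAT factors, was in 5 genes and 17.9% of member windows against 7.66%. The repeat of interferon-stimulated elements (GAAA, any 2 bases, GAAA) was in 2 genes and 7.69% of windows against 3.57%. Over windows of protein-coding genes alone, the shares were 8.34% for the E-box, 6.79% for the STAT core and 3.17% for the interferon repeat. The E-box and interferon repeat of EARS2 and the STAT core of WARS2 lie where windows of the same gene overlap. Each was counted in both windows, which raises the member shares. Matches in 4 called genes are shown here, those of WARS1 and WARS2 on the gene's own strand.
WARS1, STAT core: gctcaagtgtTTCTGAGAAtctgggtgatt
WARS1, interferon repeat: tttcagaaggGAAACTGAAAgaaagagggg
WARS2, STAT core: gaaattctccTTCCAGGAAggctgagcaga
EARS2, interferon repeat: ttcagcttggGAAAGCGAAAgcgtggcagg
EARS2, E-box: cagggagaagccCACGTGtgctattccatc
MARS2, E-box: atgcgcctctcaCACGTGctgtcagaacgc
The WARS1 stretches are chr14:100375470-100375499 and chr14:100375383-100375412 (minus strand), that of WARS2 is chr1:119140844-119140873 (minus), those of EARS2 are chr16:23557554-23557583 (plus) and chr16:23557348-23557377 (minus), and that of MARS2 is chr2:197705346-197705375 (plus). The E-box was also in the windows of IARS1 and CARS2, and the STAT core in those of PARS2, TARS1 and CARS1. EARS2 rose and MARS2 fell with an E-box in each promoter, and WARS1 rose and WARS2 fell with a STAT core in each.

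GARS1, for glycine (ENSG00000106105, chromosome 7, 30594681 to 30634033, plus strand), had 115, 115 and 121 CPM in shControl and 160, 139 and 160 in shRNH1. All 3 knockdown libraries lay above all controls. The fitted fold between the groups was 1.31 (log2 0.39, 95% interval of the log2 value 0.20 to 0.58, SE 0.0919, adjusted p = 0.00189). WARS1, the cytosolic tryptophan enzyme (ENSG00000140105, chromosome 14, 100333788 to 100376805, minus strand), had 91.8, 90.1 and 89.6 CPM in shControl and 128, 104 and 119 in shRNH1. The controls were within 3 CPM of one another and each knockdown library was above them. The fitted fold was 1.29 (95% interval of the fold 1.13 to 1.48, as for the genes below, log2 0.37, SE 0.0939, adjusted p = 0.00368).

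HARS1, the cytosolic histidine enzyme (ENSG00000170445, chromosome 5, 140673904 to 140691862, minus strand), had 94.4, 96.0 and 85.8 CPM in shControl and 77.6, 67.4 and 73.3 in shRNH1. The groups did not overlap, and the fall was to 0.790 times the control (0.693 to 0.902, log2 -0.34, SE 0.0927, adjusted p = 0.0067). NARS1, for asparagine (ENSG00000134440, chromosome 18, 57600656 to 57622213, minus strand), had 59.6, 61.8 and 57.2 CPM against 46.1, 44.2 and 49.7. It fell to 0.784 times (0.688 to 0.894, log2 -0.35, SE 0.0921, adjusted p = 0.00493), again without overlap. Scaled by library size alone, HARS1 (log2 -0.23, edgeR adjusted p = 0.0731) and NARS1 (-0.24, 0.0721) no longer passed.

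KARS1, the lysine enzyme that works in both compartments and in the multisynthetase complex (ENSG00000065427, chromosome 16, 75627474 to 75648643, minus strand), had 188, 190 and 178 CPM in shControl and 167, 130 and 154 in shRNH1. It fell to 0.812 times (0.706 to 0.934, log2 -0.30, SE 0.0981, adjusted p = 0.0226), with shRNH1 replicate 2 the lowest of the 6. The call was lost without that library (log2 -0.20, edgeR adjusted p = 0.124), without shControl replicate 1 (-0.29, 0.0823) or 2 (-0.29, 0.0619), with library size alone (-0.19, 0.131) and with an offset for expression level (-0.21, 0.0999).

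EARS2 (ENSG00000103356, chromosome 16, 23522014 to 23557731, minus strand) charges the mitochondrial glutamate tRNA and also puts glutamate on the mitochondrial glutamine tRNA, which an amidotransferase then converts. It had 46.4, 43.7 and 44.2 CPM in shControl and 75.5, 71.1 and 72.9 in shRNH1. The gap between the groups was far wider than the spread within them, at 1.64-fold (1.44 to 1.86, log2 0.71, SE 0.0899, adjusted p = 9.05e-07). IARS2, for mitochondrial isoleucine (ENSG00000067704, chromosome 1, 220094102 to 220148041, plus strand), had 110, 103 and 100 CPM against 118, 127 and 134, which is 1.21-fold (1.06 to 1.38, log2 0.27, SE 0.0909, adjusted p = 0.0244). Its call was lost without shControl replicate 2 (log2 0.25, edgeR adjusted p = 0.0975) or 3 (0.25, 0.0504), without shRNH1 replicate 3 (0.23, 0.143), with no filter on low counts (0.27, 0.053) and with the replicate number as a block (0.27, 0.076).

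MARS2, for mitochondrial methionine (ENSG00000247626, chromosome 2, 197705369 to 197708387, plus strand), had 27.4, 27.3 and 30.3 CPM in shControl and 21.8, 20.2 and 21.1 in shRNH1. It fell to 0.742 times (0.644 to 0.855, log2 -0.43, SE 0.0995, adjusted p = 0.00168), all knockdown libraries lying below all controls. WARS2 (ENSG00000116874, chromosome 1, 119031216 to 119140671, minus strand) had 14.8, 16.5 and 13.5 CPM against 9.79, 10.7 and 10.9. It fell to 0.700 times (0.593 to 0.827, log2 -0.51, SE 0.117, adjusted p = 0.00139), also without overlap. GARS1, WARS1, EARS2, MARS2 and WARS2 were called the same way in all 15 alternative analyses run.

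**Figure D2:**
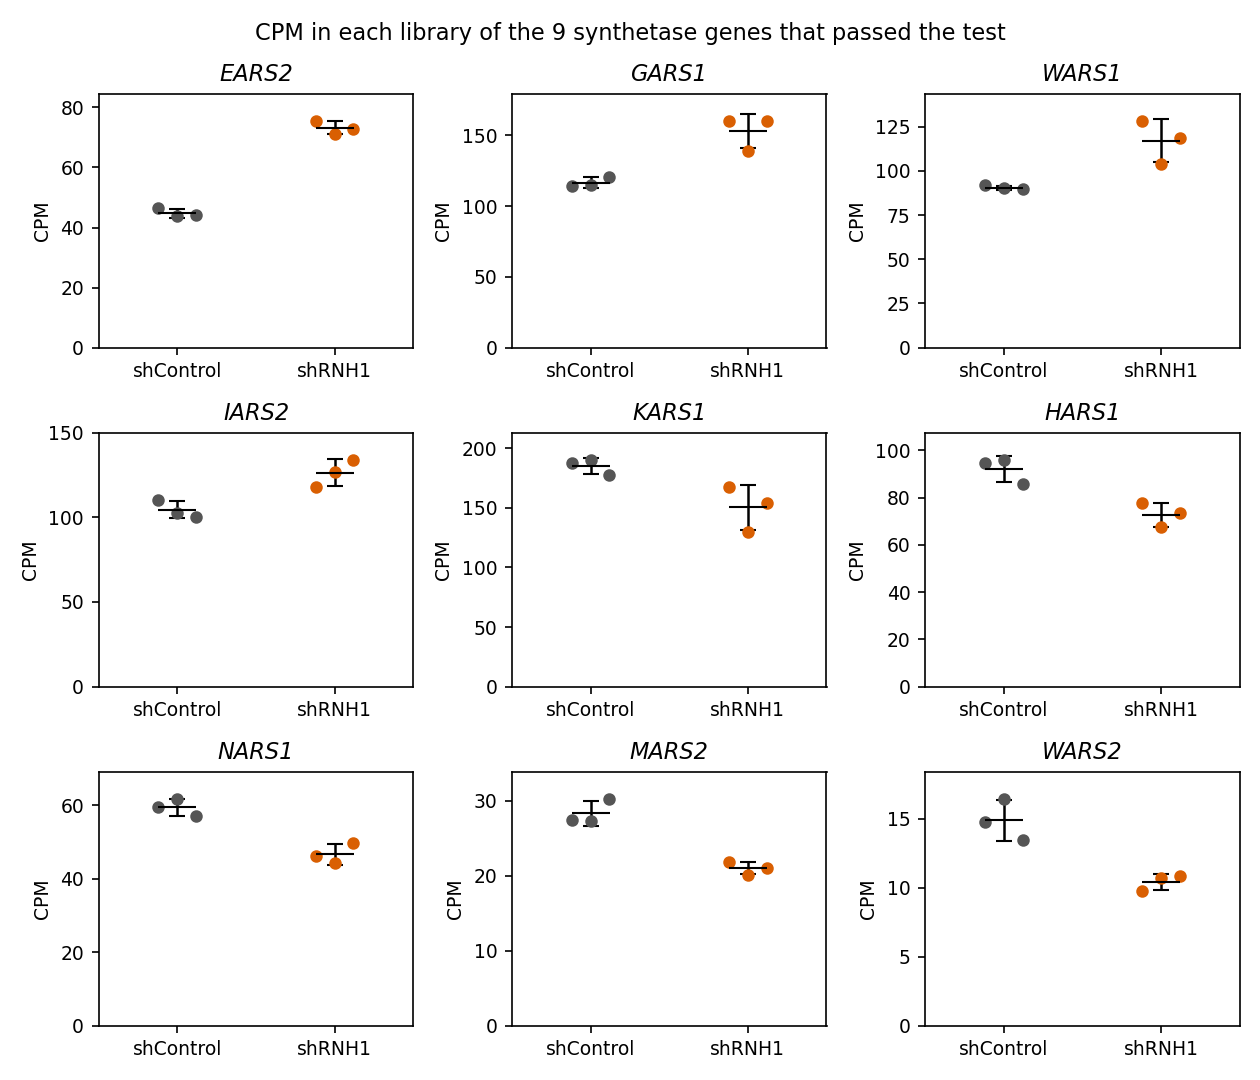
CPM of the 9 synthetase genes that passed the test, each point 1 library (grey shControl, orange shRNH1), with the mean and SD of 3 libraries; each vertical axis starts at 0. The groups do not overlap in any of the 9 panels, and EARS2, from 44.8 to 73.2 CPM, has the largest fold of the 9.

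Cytosolic and mitochondrial enzymes for the same amino acid were set side by side in 17 pairs. Both genes were called in 1 pair, for tryptophan, where WARS1 rose and WARS2 fell. In 5 pairs 1 of the genes was called and its counterpart was not. The ratio of WARS1 to WARS2, in CPM per kilobase of exon, was 3.76, 3.31 and 4.02 in shControl and 7.94, 5.90 and 6.61 in shRNH1, a mean of 3.70 ± 0.357 against 6.82 ± 1.03 (SD, n = 3). Every knockdown library was above every control in that ratio, the mean being 84.4% higher. Beside the rise of EARS2, EPRS1 was not called, with 99.1, 88.1 and 81.9 CPM in shControl and 106, 90.1 and 114 in shRNH1 (log2 0.20, edgeR adjusted p = 0.142). Without shRNH1 replicate 2, EPRS1 passed as higher (log2 0.30, edgeR adjusted p = 0.0323), as it did with library size alone (0.31, 0.0253). The EPRS1 to EARS2 ratio went from 2.11 ± 0.148 to 1.48 ± 0.157 (SD, n = 3), without overlap. PARS2, the mitochondrial proline enzyme and the other counterpart of EPRS1, had 9.99, 10.4 and 10.4 CPM against 13.4, 9.37 and 11.1, and its groups overlapped (log2 0.14, edgeR adjusted p = 0.474).

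MARS1 had 229, 239 and 234 CPM in shControl and 252, 209 and 242 in shRNH1 beside the fall of MARS2 (log2 95% interval for MARS1 from -0.19 to 0.20). The MARS1 to MARS2 ratio per kilobase was 34.3% higher in shRNH1. NARS2 had 18.1, 18.3 and 19.0 CPM against 18.4, 18.6 and 18.8 beside the fall of NARS1, and the NARS1 to NARS2 ratio changed by -22.2%. IARS1 had 291, 297 and 279 CPM against 291, 262 and 300 beside the rise of IARS2. HARS2 had 22.0, 23.6 and 20.1 CPM against 22.3, 17.7 and 21.7 beside the fall of HARS1, and its log2 95% interval, from -0.32 to 0.14, holds part of the interval of HARS1. The ratios of the groups did not overlap in 7 of the 17 pairs: those of WARS1, EARS2, MARS2, NARS1, IARS2 and HARS1 with their counterparts, EPRS1 with EARS2 among them, and that of LARS1 and LARS2, in which neither gene was called (ratio 0.661 in shControl and 0.834 in shRNH1). All of these pairs but that of LARS1 and LARS2 hold a called gene, so their ratios are not separate from the calls. A share over other pairs of genes was not computed. Over all single genes tested, the CPM of the groups did not overlap for 40.0%. These ratios are descriptions and were not tested.

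**Figure D3:**
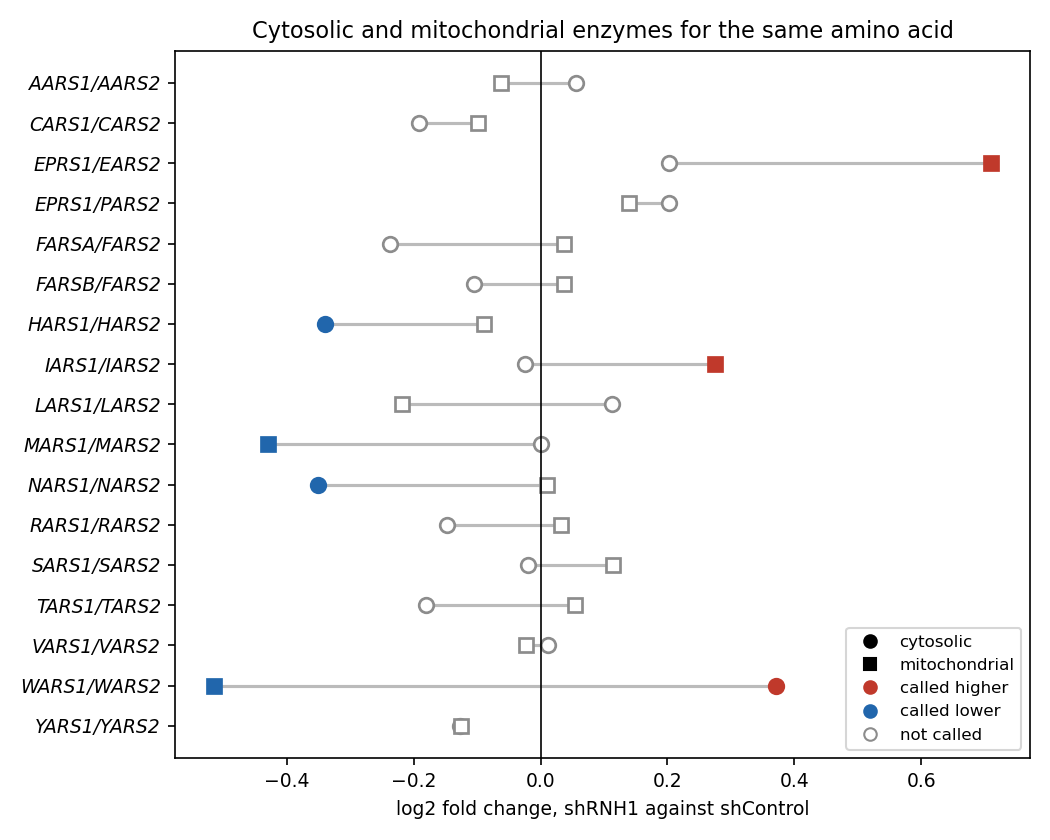
Log2 fold change in shRNH1 against shControl for the cytosolic (circle) and mitochondrial (square) enzyme of each of 17 pairs, joined by a grey line; filled red and blue marks are genes called higher and lower. WARS1 at 0.37 and WARS2 at -0.51 are the 1 pair with both genes called, on opposite sides of 0.

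The 26 genes that were not called include 3 whose groups did not overlap. FARSA, the catalytic subunit of the cytosolic phenylalanine enzyme, was at 273 ± 19.6 CPM in shControl and 231 ± 11.3 in shRNH1 (log2 -0.24, edgeR adjusted p = 0.061). LARS2, for mitochondrial leucine, was at 84.0 ± 2.71 and 72.1 ± 3.45 CPM (log2 -0.22, edgeR adjusted p = 0.071). CARS1, for cytosolic cysteine, was at 125 ± 6.40 and 109 ± 7.28 CPM (log2 -0.19, edgeR adjusted p = 0.126). FARSA passed in 6 of the 15 alternatives, LARS2 in 3 and CARS1 in 1, each on the lower side. FARSB, which codes for the other subunit of the phenylalanine enzyme, had a log2 fold change of -0.10.

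The other cytosolic genes that did not pass lay between log2 -0.18 for TARS1 and 0.11 for LARS1, with VARS1 at 0.01, AARS1 at 0.06, QARS1 at 0.06, SARS1 at -0.02, YARS1 at -0.13 and RARS1 at -0.15. TARS1 passed as lower without shControl replicate 3 (-0.27, edgeR adjusted p = 0.0314) and with the offset for GC content and length (-0.21, 0.0418), and VARS1 as higher with the offset for expression level (0.22, 0.0227). The other mitochondrial ones lay between -0.12 for YARS2 and 0.11 for SARS2, with AARS2 at -0.06, CARS2 at -0.10, FARS2 at 0.04, RARS2 at 0.03 and TARS2 at 0.05. VARS2 had 25, 42 and 19 counts in shControl and 21, 23 and 29 in shRNH1. Its log2 fold change of -0.02 has a 95% interval from -0.78 to 0.74, so a change in either direction within that range remains possible. It shares 1858 exon bases on its own strand with GTF2H4, and SARS2 shares 1492 with another annotated gene, so the counts of both are uncertain.

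Within the multisynthetase complex, 1 of its 7 synthetase genes, KARS1, was called, and the median log2 fold change of the 7 was 0.00. Outside it, 2 cytosolic genes were called higher and 2 lower of 12. Of 3 scaffold genes, AIMP2 passed, at 47.9 ± 2.46 CPM in shControl and 57.0 ± 4.58 in shRNH1 (log2 0.25, edgeR adjusted p = 0.0485). AIMP1 had a log2 fold change of 0.24 (edgeR adjusted p = 0.0973) and EEF1E1 of -0.08 (edgeR adjusted p = 0.798). AIMP2 passed in 6 of 15 alternatives. Leaving out any 1 library other than shRNH1 replicate 2 ended its call, with log2 values from 0.21 to 0.29.

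Levels between genes were compared as CPM per kilobase of GENCODE 29 union exon. VARS1, for cytosolic valine, had the highest level in shControl, 187 ± 16.1, followed by FARSA at 112 ± 8.04. KARS1 (45.5), QARS1 (41.7), IARS1 (39.0) and AARS1 (38.7) came next, and the spreads of IARS1 and AARS1 overlap. The highest mitochondrial gene, IARS2 at 25.1, was 12th of the 35. The order depends on the length used: per kilobase of the longest transcript YARS1 moved from 11th to 5th, and CARS2, at 47.6, was the highest mitochondrial gene, above IARS2 at 29.3. VARS1, FARSA, KARS1 and QARS1 led by either length. Per kilobase of exon the lowest levels were those of WARS2 at 3.87, SARS2 at 2.57 and VARS2 at 0.0858. Because SARS2 and VARS2 share exon bases with other genes on their strand, their levels, and the pair comparisons that use them, are uncertain. In 14 of the 17 pairs the cytosolic gene had the higher level per kilobase, and in 15 by the longest transcript. The summed CPM of the cytosolic genes was 3741 ± 92.8 in shControl and 3669 ± 187 in shRNH1, and that of the mitochondrial genes 713 ± 8.05 and 727 ± 16.2, differences smaller than the spread of the shRNH1 libraries. Over the 35 genes the log2 fold change had a Spearman rank correlation of 0.17 with GC content, 0.05 with exon length and 0.01 with mean log2 CPM, across genes that share the same 6 libraries.

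**Figure D4:**
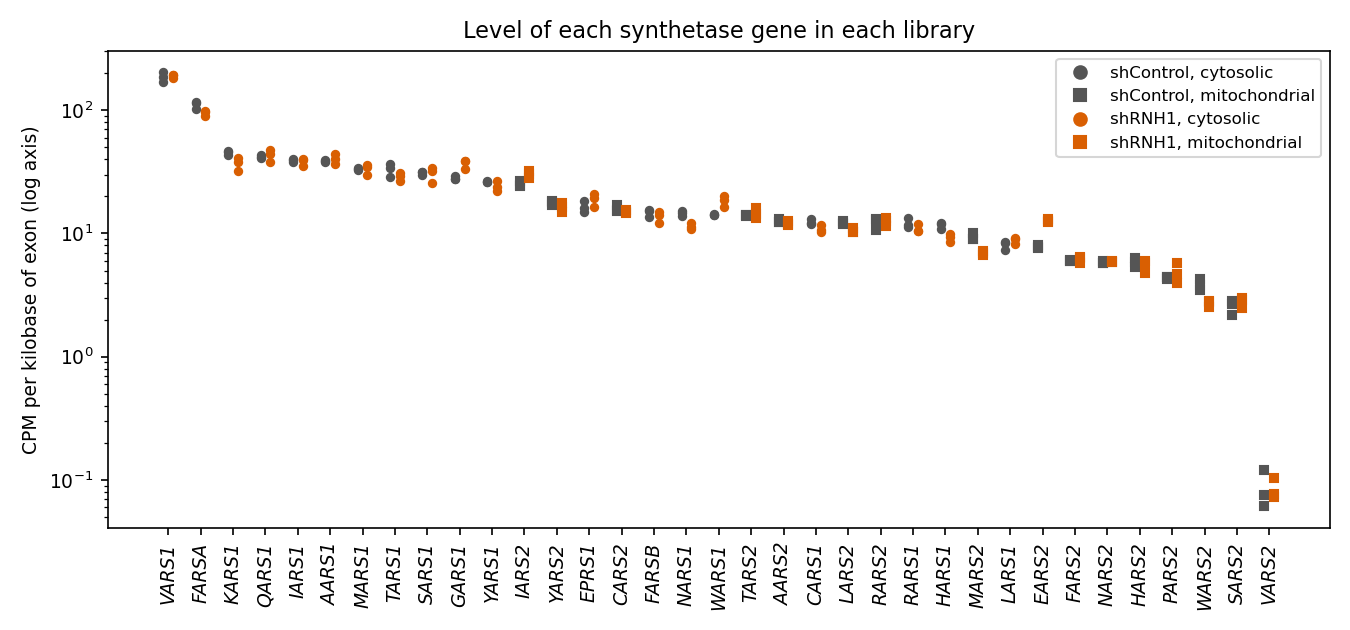
CPM per kilobase of exon (log axis) of each synthetase gene in each of 6 libraries, grey for shControl and orange for shRNH1, circles for cytosolic and squares for mitochondrial genes, ordered by the shControl mean. VARS1 at 187 and FARSA at 112 stand above the rest and VARS2 at 0.0858, a level made uncertain by shared exons, far below.

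The cytosolic genes were low together in shRNH1 replicate 2. That library was the lowest of its group for 15 of the 19 cytosolic genes (78.9%) and for 9 of the 16 mitochondrial ones, against 37.5% of all genes tested. The median log2 deviation of the cytosolic genes from their shControl means was -0.18 in it and 0.02 and 0.03 in the other shRNH1 libraries. Without it the median cytosolic log2 fold change was 0.00, with 3 genes called higher and 2 lower. Of the 19 cytosolic genes, 16 lie in the most highly expressed of 5 equal bins of all genes, a bin whose median log2 fold change was -0.10 and of whose genes 40.0% were called.

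Many synthetase genes start close to a gene on the other strand, and reads from both can then be confused, because the sources used here do not state whether counting used strand. A tested gene started within 1000 bases on the other strand beside 14 of the 35 genes, making 13 pairs, and beside 6 of the 9 called genes. In 4 of these 6 the neighbour was called in the same direction and in 0 in the opposite one. Over all called genes with such a neighbour (1118 cases), the neighbour was called in the same direction in 26.8%, in the opposite one in 6.98% and in neither in 66.2%. The difference from the synthetases was not tested. EARS2 starts 369 bases from UBFD1, which rose from 135 ± 3.67 to 196 ± 7.17 CPM (log2 0.53, edgeR adjusted p = 4.9e-05), and the annotated exons share 370 bases, 6.46% of those of EARS2. GARS1 starts 128 bases from the divergent transcript GARS1-DT, which rose from 12.6 ± 1.06 to 19.7 ± 0.943 CPM (log2 0.64, edgeR adjusted p = 5.9e-05), with 99 shared bases. WARS1 and WDR25, with starts 387 bases apart and 287 shared bases, both rose, WDR25 from 7.38 ± 0.265 to 9.86 ± 0.536 CPM (log2 0.42, edgeR adjusted p = 0.0131). WARS2 and WARS2-AS1, 275 bases apart with 180 shared, both fell, WARS2-AS1 from 20.6 ± 0.343 to 16.3 ± 0.538 CPM (log2 -0.33, edgeR adjusted p = 0.0149).

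Beside HARS1 and KARS1, the other called genes with such a neighbour, the neighbour did not pass. HARS1 and HARS2 start 436 bases apart, head to head, with 437 shared exon bases and similar coding sequences, so their counts are uncertain. HARS1 also shares 221 exon bases at its far end with WDR55, a gene on the other strand that fell from 55.5 to 38.6 CPM (log2 -0.52, edgeR adjusted p = 9.9e-05). KARS1 shares 176 bases with TERF2IP, a telomere protein gene that was not called (log2 -0.09, edgeR adjusted p = 0.513). Beside the uncalled CARS1, the transcript ENSG00000285644, 75 bases away, rose (log2 0.68, edgeR adjusted p = 0.0486). CARS1-AS1, which shares 205 exon bases with CARS1 on the other strand, fell (log2 -0.69, edgeR adjusted p = 0.0284). S100PBP, which shares 396 exon bases on the other strand with the uncalled YARS1, rose (log2 0.32, edgeR adjusted p = 0.0242). The part of shared reads in these pairs was not tested.

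**Figure D5:**
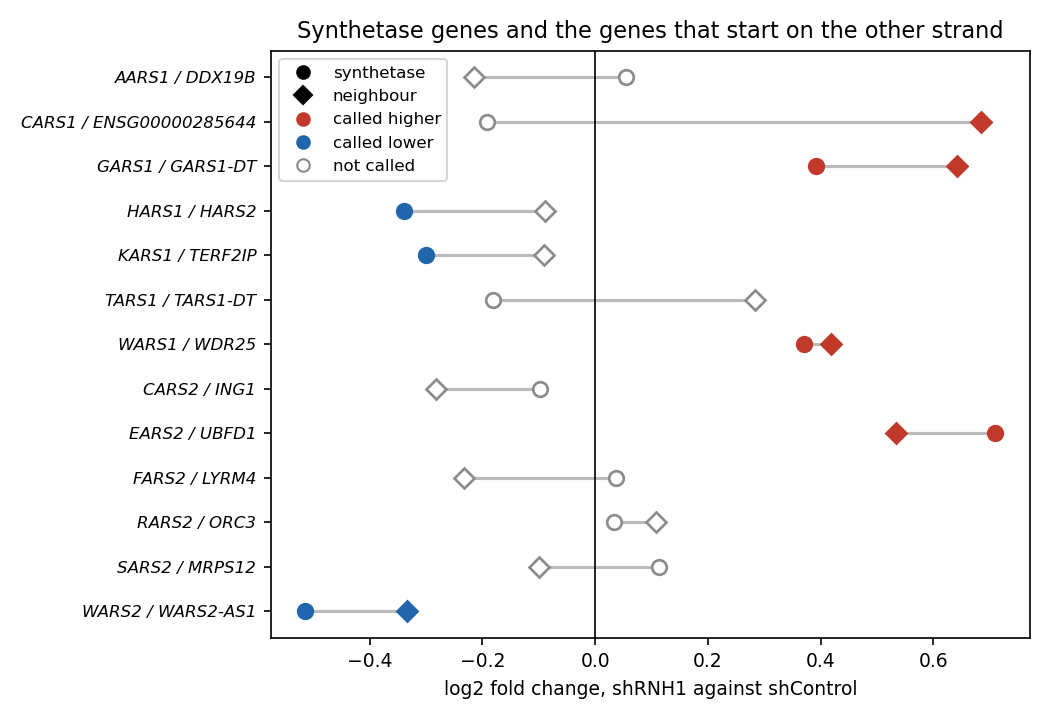
Log2 fold change of 13 synthetase genes (circles) and of the gene that starts within 1000 bases on the other strand (diamonds), joined by grey lines; red and blue fills mark genes called higher and lower, open marks genes not called. In the pairs of GARS1, WARS1, EARS2 and WARS2 both genes are called on the same side of 0.

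Genes that work with the synthetases were counted in the same way. Of 4 genes that finish charging in mitochondria, the amidotransferase subunits GATB (log2 0.23), GATC (-0.12) and QRSL1 (-0.06) and the initiator formyltransferase MTFMT (-0.12), 0 passed with edgeR, 0 had an unadjusted p below 0.05 and 0 passed with DESeq2. Of 10 synthetase relatives and charging partners, 2 fell by edgeR: YRDC, which makes a tRNA base modification (log2 -0.52, edgeR adjusted p = 0.00374), and TARS3, a second cytosolic threonine enzyme (-0.45, 0.021). TARS3 no longer passed without shControl replicate 3 (-0.35), shRNH1 replicate 1 (-0.43) or shRNH1 replicate 3 (-0.45), nor with library size alone (-0.34). Of 6 cytosolic elongation factors tested, EEF1D, an exchange factor that also binds synthetases, fell from 352 ± 18.8 to 255 ± 29.3 CPM (log2 -0.47, edgeR adjusted p = 0.000685). EEF1A1, which carries charged tRNA to the ribosome (-0.20), EEF1B2 (-0.20), EIF5A (-0.14), EEFSEC (-0.03) and EEF2 (-0.02) did not pass, and EEF1G, with 0 to 3 counts, was not tested. Cells need EEF1G, so these counts may be a failure of the counting and are not read as absence of the transcript.

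Of 13 genes for processing and modifying mitochondrial tRNA, 6 fell and 0 rose by edgeR, 46.2% against the 27.6% of all genes. DESeq2 likewise called 6 lower and 0 higher, and 0 were higher at an unadjusted edgeR p below 0.05. With library size alone, 4 were lower and 0 higher. The median log2 fold change of the 13 was -0.16. PUS1, which makes pseudouridine, fell from 151 ± 22.1 to 90.3 ± 8.15 CPM (log2 -0.74, edgeR adjusted p = 4.5e-06). ELAC2, which trims the tRNA 3′ end (-0.48, 0.000241), TRMU, which thiolates the wobble base (-0.44, 0.000419), and TRIT1, which adds an isopentenyl group (-0.50, 0.00202), fell as well by edgeR adjusted p. PUS1, ELAC2, TRMU and TRIT1 were called lower in all 15 alternatives. The remaining calls of this list were lost with library size alone. At least 1 of them was also lost without shControl replicate 2, shRNH1 replicate 1 or shRNH1 replicate 2. Of 11 mitochondrial translation factors, 3 fell and 0 rose by edgeR, 27.3% called, which is near the 27.6% of all genes. At an unadjusted edgeR p below 0.05, 0 were higher, and DESeq2 called 0 higher. Their median log2 fold change was -0.15. Those that fell were the ribosome rescue factor MRPL58 (-0.58, edgeR adjusted p = 8.54e-05), the initiation factor MTIF2 (-0.34, 0.0207) and the exchange factor TSFM (-0.79, 0.0276). MTIF2 did not pass without shControl replicate 2 (-0.31), shRNH1 replicate 2 (-0.29) or shRNH1 replicate 3 (-0.31), and TSFM without shControl replicate 2 (-0.66), shRNH1 replicate 1 (-0.79) or shRNH1 replicate 3 (-0.71). The number of translation factors called lower was 1 with library size alone and 1 without shControl replicate 2 or shRNH1 replicate 3.

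Of 28 genes of the ATF4 amino acid response, a list kept apart from the synthetases themselves, 6 rose and 6 fell, 42.9% called against 27.6% of all genes, with a median log2 fold change of -0.04. ATF4 fell from 396 ± 28.9 to 314 ± 25.9 CPM (log2 -0.33, edgeR adjusted p = 0.0112), a call that an offset for expression level ended (-0.19, edgeR adjusted p = 0.071), with 3 genes of the list then called lower. ATF5, a related factor, fell (-0.57, edgeR adjusted p = 2.22e-05), while CTH, which makes cysteine (0.95, 8.53e-05), and SESN2, a nutrient sensor (0.64, 8.72e-05), rose. NUPR1, a stress-response regulator, had 3, 0 and 4 counts in shControl and 47, 55 and 44 in shRNH1. Of 13 stress sensors and eIF2 factors, 3 rose and 5 fell, 61.5% called against 27.6% of all genes, with a median of -0.21. The number lower was 1 with library size alone, and 3 with the replicate block or without shControl replicate 3, shRNH1 replicate 1 or shRNH1 replicate 3. The eIF2 kinases EIF2AK1 (0.43, edgeR adjusted p = 0.000858), EIF2AK3 (0.49, 0.00367) and EIF2AK2 (0.34, 0.00592) rose and the exchange factor subunit EIF2B2 fell (-0.40, 0.00151). EIF2AK4, the gene of GCN2, which was singled out after its value was seen, fell (-0.34, edgeR adjusted p = 0.00644), but not past the threshold without shRNH1 replicate 1 (-0.29, 0.0565) or with library size alone (-0.22, 0.0749).

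Of 18 interferon gamma response genes, other than WARS1, 14 could be tested, and 6 rose and 0 fell by edgeR. The 6 are 42.9% of the 14, against 27.6% of all genes called and 15.3% called higher. DESeq2 called 3 higher and 0 lower, and 8 were higher and 0 lower at an unadjusted edgeR p below 0.05. The median log2 fold change of the 14 was 0.31. UBE2L6, a conjugating enzyme for the ubiquitin-like protein ISG15 (log2 1.82, edgeR adjusted p = 3.29e-06), the factor IRF9 (1.15, 1.79e-05) and the GTPases GBP2 (1.47, 7.09e-05) and GBP3 (0.55, 0.0216) rose from low levels. UBE2L6, the highest in fold, was at 0.846 ± 0.0662 CPM in shControl and 3.00 ± 0.594 in shRNH1. IRF1, a transcription factor of the interferon response, was at 33.9 ± 0.825 and 34.7 ± 1.87 CPM, with a log2 fold change of 0.03 (edgeR adjusted p = 0.851). The count of 6 was 3 as well without any 1 of shControl replicate 2, shRNH1 replicate 1 and shRNH1 replicate 3, and GBP3 was among those that then did not pass. PTPRC, a leukocyte marker, had 0 to 1 counts in shControl and 6 to 11 in shRNH1 beside these genes, and its part in them was not tested.

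Of MYC and 7 relatives and partners, 3 rose and 3 fell, 75.0% called against 27.6% of all genes. MYC, whose protein is known to bind E-boxes in promoters of growth genes, fell from 1008 ± 84.8 to 752 ± 47.1 CPM (log2 -0.42, edgeR adjusted p = 0.00208). Its partner MAX (-0.52, edgeR adjusted p = 9.86e-05) and MLX (-0.53, 6.6e-05) fell too, and the MAX partners MXD1 (0.84, 9.72e-07) and MXI1 (0.66, 3.72e-05), which act against MYC, rose. The third riser was MYCN, a relative of MYC, from 0.292 ± 0.135 to 0.785 ± 0.257 CPM (1.42, edgeR adjusted p = 0.0197), a call lost without shControl replicate 2 (1.13), shRNH1 replicate 2 (1.36) or shRNH1 replicate 3 (1.21). Among the 4 synthetase genes with an E-box in the window searched, EARS2 rose, MARS2 fell, and IARS1 and CARS2 were not called.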

How the data were processed

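The deposited table holds read counts per gene for 6 libraries, not normalized by the authors. The submitters' processing notes name HISAT2, StringTie, DESeq2 and the build GRCh38. Not given in the sources used here are the counting tool, its strand setting and all versions. The labels call the replicates biological without saying what was separate, so the p-values reflect spread between libraries that may be partly technical. All 62700 IDs carry a symbol, and 58207 are in GENCODE 29, from which positions, exon lengths and GC content were taken. Counts of the 37 mitochondrial-chromosome genes summed to 0.

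Genes were filtered with filterByExpr and tested with the quasi-likelihood test of edgeR 4.0.16 (R 4.3.3) with trimmed-mean scaling. CPM use the same scaling. Alternatives used DESeq2 1.42.0, limma 3.58.1 with voom, other scalings and filters, offsets from splines of 5 degrees of freedom (MASS 7.3.60.0.1), a replicate block, and each library left out. The stricter filter kept genes with 1 CPM or more in 3 libraries or more. The fit was tested on simulated data. Differences between replicates were above sampling noise (chi-square per gene 6.61 to 21.0), so no library was counted as a duplicate.

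Every synthetase gene is accounted for, with values in every library for called members and their counterparts. Other lists name up to 4 called genes with the smallest adjusted p, or all genes in lists of at most 7. The members and lists were chosen with earlier results of these data known. Motifs were matched letter by letter on both strands.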

Additional observations from a re-analysis of the deposited data

How the results depend on the processing

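Over 15 alternatives, 497 of 524 synthetase values stayed on their side of the threshold. Of the rest, 12 called values missed it and 15 uncalled values passed it. The sign changed in 0 called values. Among the 497 are 46 whose sign changed, where the gene passed in neither analysis. With library size alone, the lower calls were 1433 over all genes and 0 among cytosolic synthetases (3 at an unadjusted p below 0.05), and the medians were 0.0856 for cytosolic and 0.10 for mitochondrial genes, beside 0.13 for all genes. With the offset for GC content and length (18754 genes tested), 6 cytosolic genes were lower, the mitochondrial median was -0.0637, and RNH1 passed at log2 -0.25 (edgeR adjusted p = 0.0339, against 0.221 without it). The mitochondrial genes called higher came to 1 with no filter, 1 with the replicate block, and 1 to 2 with 1 library left out, the gene lost being IARS2 each time. Over all genes 5004 were called by DESeq2 and 5441 by limma-voom.

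The replicate numbers showed no pairing: deviations of same-numbered libraries correlated at 0.05, 0.06 and -0.05, and control replicate 1 correlated best with knockdown replicate 3. The labels do not say whether the libraries were paired, and these values cannot exclude it. With the number as a block, 2938 genes were higher and 2156 lower, and among the synthetases the block ended the call of IARS2 (log2 0.27, edgeR adjusted p = 0.076) and made no other change in a call. Low counts limit VARS2, the synthetase with the fewest reads. The part of its exon overlap with GTF2H4 in those counts was not tested.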
